A study of Mus musculus with 66 samples.

Results

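RNA of mouse embryonic stem cells was compared with and without auxin 20 minutes after release from mitotic arrest, in a line built for auxin-driven degradation of 2 nuclear receptors, Esrrb and Nr5a2. All genes of the deposited expression table that reached 1 TPM in at least 1 of its 18 group columns were taken, which left 8999 of 13957 genes. TPM corrects RNA abundance for the length of the gene and the size of the library. The comparison rests on 6 of the 66 libraries of the series, 3 without and 3 with auxin. The table holds 1 value per group, the authors' mean of the 3 libraries, so no value has a replicate spread, no gene has a test, and every difference is a description of these means. The least expressed genes inside the limit were Ccdc159, whose highest group value was 1.00055 TPM, and Sfrp4 at 1.00108 TPM, and the first outside it was Focad at 0.998705 TPM.

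The series holds 54 RNA libraries in 18 groups of 3, which are the 2 arms at 9 stages: asynchronous cells, cells in mitosis and 7 times after release. Its other 12 libraries are ChIP of wild-type E14Tg2a cells, made for a single list of Nr5a2 peaks. No label says whether the 3 libraries of a group are separate cultures.

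Both groups compared are the E14Tg2a derivative of 129/Ola background that carries degradable Esrrb and Nr5a2, arrested in mitosis and harvested 20 minutes after release. They differ in auxin. The arm was read from the titles, since the treatment field is ctl in all RNA libraries of both arms. Both receptors are degraded together, so the part of each cannot be told apart. Cells without degradable receptors that were given auxin are not among the groups, so receptor loss and any other action of auxin cannot be told apart either. The labels do not say when auxin was added, how cells were arrested or whether the derivative is 1 clone. The mitotic groups and the groups at 30 minutes and later come from other libraries of the same 2 arms.

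Auxin-inducible degradation removes a protein that carries a plant degron tag, by joining it to a ubiquitin ligase, and leaves its gene in place. Esrrb and Nr5a2 are orphan nuclear receptors that bind similar DNA sequences and belong to the transcription factor network of naive pluripotency, the state of the early epiblast that embryonic stem cells keep in culture. Some transcription factors stay on mitotic chromosomes, which is called mitotic bookmarking, and the study asks what the loss of this pair does when transcription starts again after division. Most transcription is silent in mitosis, so RNA measured minutes after release contains RNA made before division as well as any new transcripts.

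At 20 minutes the arms were close to each other. The listed genes summed to 18417 TPM without and 17641 TPM with auxin, and the median gene differed by -0.03 in log2(TPM + 1), auxin minus no auxin. That stage median was subtracted from each gene, and every difference between the arms from here on is this centred log2 difference, unless stated otherwise. Over the 8999 genes the differences had an SD of 0.094, and 95.7% of them lay within 0.2 of the median. In mitosis the SD over genes was 0.093, at 30 minutes it was 0.118 and at 40 minutes 0.171. Summed TPM without auxin was 17189, 17334 and 22898 at these stages, in that order. Adding 1 TPM shrinks differences more where levels are lower, so these SDs are not fully alike in scale. Embryonic stem cell markers were present: those 8 of 9 that are in the table summed to 47.8 TPM without and 42.5 TPM with auxin. Fibroblast markers, 5 of 10 in the table, summed to 5.09 and 4.09 TPM, of which Fn1 made 4.35 and 3.43, and Twist1, Thy1 and Col1a1 were each under 0.03 TPM in both arms. Trophectoderm markers, 5 of 6 in the table, summed to 1.03 and 0.652 TPM, and primitive endoderm markers, 4 of 6, to 0.0515 and 0.0672 TPM. The part of these marker levels in the differences was not tested.

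A centred difference of 1.5-fold or more in TPM + 1 was seen in 10 genes that were lower with auxin (0.111% of genes) and 3 that were higher (0.0333%). Adding 1 TPM understates the fold of low genes, and with a pseudocount of 0.1 the counts were 105 and 80. The 10 lower were Utf1, 9330020H09Rik, BC029722, Gm5741, Snhg9, Jam2, Adam1a, Gm38509, Tmem88 and Abhd11os, and the 3 higher were Arf6, Lrch4 and Dohh. BC029722 and Gm5741 are listed at 0 TPM with auxin and at 0.640 and 0.622 TPM without it, and Dohh is listed at 0 without auxin and at 0.528 TPM with it. Past a smaller limit, 0.32 in centred log2, the counts were 62 lower (0.689%) and 43 higher (0.478%). The counts of the 2 sides were close under other scalings, 19 lower and 17 higher at 1.5-fold with columns scaled to equal totals, and 18 and 17 with quantile scaling. Several of the genes past 1.5-fold were near or under 1 TPM in both arms. In mitosis 13 genes were at least 1.5-fold lower and 2 higher, at 30 minutes 19 and 4, and at 40 minutes 51 and 15.

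**Figure D1:**
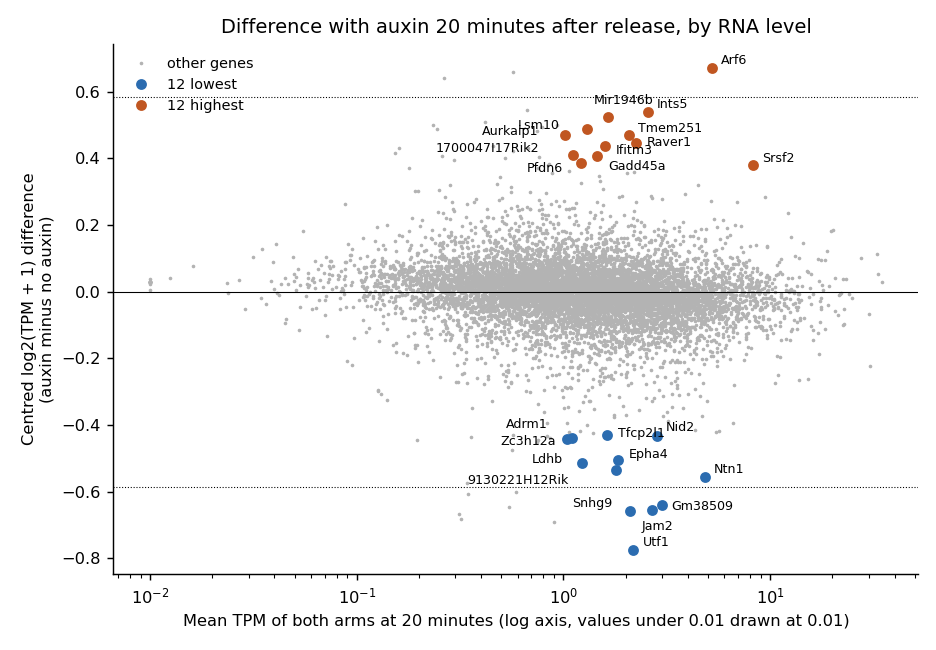
Centred log2(TPM + 1) difference (vertical axis, auxin minus no auxin) against the mean TPM of the 2 arms (horizontal log axis) at 20 minutes, 1 point per gene for 8999 genes, with 1.5-fold marked by dotted lines. Most points lie within 0.2 of 0, and the named genes are the 12 lowest (Utf1 at -0.78) and the 12 highest (Arf6 at 0.67) of those with a mean of at least 1 TPM.

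Naive pluripotency genes lay mostly on the lower side. Of 42 listed genes, 41 are in the table and 39 reached 1 TPM. Of these, 30 were below and 9 above the stage median at 20 minutes, beside 50.0% of all genes below it, and the median of the list was -0.11, beside 0 for all genes by construction. Members were chosen with earlier results of these data known, so these counts describe the chosen members. The authors' deposited table calls 30 of the 39 lower, beside 9.46% of all genes, and 1 higher, beside 8.52%. Most differences were modest, with 4 of the 39 lower and 0 higher past the limit of 0.32, beside 0.689% and 0.478% of all genes.

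The 2 targeted genes serve first as a check of the label, although degradation acts on the protein and their RNA need not differ. Esrrb RNA stood at 1.68 TPM without and 1.52 with auxin (-0.06). Nr5a2 RNA stood at 2.78 and 2.67 TPM (-0.01). The RNA of both targets was thus close between the arms, and protein is not measured in the table.

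Among transcription factors of the naive network, Tfcp2l1, a factor induced by the LIF-STAT3 pathway, was among the furthest from the median. Its level was 2.04 TPM without and 1.21 TPM with auxin (-0.43). Tbx3 stood at 0.678 and 0.365 TPM (-0.27). Klf5 stood at 3.28 and 2.59 TPM (-0.22). These 3 factors were on the lower side in both neighbouring stages as well. Nanog, a core factor of the network, was at 3.33 TPM without and 2.84 with auxin (-0.14), nearer to the stage median than in mitosis (-0.31). Pou5f1, which encodes Oct4, was at 6.51 and 5.97 TPM (-0.08). Klf2 was at 3.36 and 3.16 TPM (-0.04), and at 30 minutes its difference was -0.46. Klf4 lay on the other side, with 0.536 TPM without and 0.608 with auxin (0.10). The members of the Klf family therefore did not lie on 1 side at 20 minutes.

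Other naive-state genes with lower values encode a chromatin-associated protein, enzymes and surface proteins. Utf1, a chromatin-associated protein of undifferentiated cells, was at 3.05 TPM without and 1.32 TPM with auxin (-0.78), the lowest difference of all 8999 genes. Jam2, a junctional adhesion molecule, was at 3.55 and 1.83 TPM (-0.65). Triml2, a member of the tripartite motif-like family, was at 7.75 and 5.52 TPM (-0.39). Of the naive genes, Utf1 and Jam2 were past 1.5-fold in TPM + 1. With a pseudocount of 0.1 others were past it too, such as Tfcp2l1 (-0.66), Tbx3 (-0.69) and Ooep (-0.95). Zfp57, a zinc finger protein that guards imprinted methylation, was at 4.94 and 3.75 TPM (-0.29). Tdh, the threonine dehydrogenase on which mouse embryonic stem cells depend, was at 11.7 and 9.31 TPM (-0.27). Zfp42, also called Rex1, was at 18.6 and 15.9 TPM (-0.19). In Tet2, an enzyme that oxidises methylcytosine, the levels were 3.83 and 3.08 TPM (-0.21). Genes of low and of high level were thus on the lower side.

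The 9 naive genes above the stage median were closer to it. Lin28a, which blocks let-7 maturation, had the highest difference of the list, with 4.31 TPM without and 4.92 with auxin (0.19). Dppa5a was at 6.17 and 6.55 TPM (0.10), whereas its difference was -0.82 at 40 minutes and -0.82 in asynchronous cells. Sall4 was at 6.25 and 6.43 TPM (0.07), and Stat3, the transducer of LIF signals, at 2.15 and 2.21 TPM (0.06).

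Most naive genes had similar differences in mitosis. The list's median was -0.11 in mitosis, -0.11 at 20 and -0.15 at 30 minutes, -0.38 at 120 minutes and -0.26 in asynchronous cells. From mitosis to 20 minutes the difference of a naive gene moved by a median of 0.013, and by 0.034 in absolute size, beside 0.045 for all genes. Over the 39 genes, Pearson's r of the differences at 20 minutes with those in mitosis was 0.87, with those at 30 minutes 0.63 and with those in asynchronous cells 0.45. These are descriptions across genes of the same cell line, which are not independent. In 32 of the 39 genes the difference was closer to the median at 20 minutes than in asynchronous cells, as it was in 5112 of all 8999. Sizes are not alike across stages, here and below, since adding 1 TPM shrinks differences more where levels are lower. Without auxin, TPM summed to 17189 in mitosis, 18417 at 20 minutes, 24769 in asynchronous cells and 40735 at 120 minutes. Naive genes below the median in mitosis, at 20 and at 30 minutes numbered 23, beside 17.8% of all genes, and 3 were above it at all 3 stages, beside 17.9%. At all 9 stages 17 naive genes were below the stage median, beside 6.33% of all genes, and 0 were above it, beside 5.36%. The choice of members described above bears on these counts as well. Some genes differed in side from mitosis. Ooep, a maternal-effect gene, was at 0.444 TPM without and 0.172 with auxin at 20 minutes (-0.27), and had 0.14 in mitosis. Spp1 had 0.07 in mitosis and -0.16 at 20 minutes, and Klf4 had -0.09 and 0.10. Dppa3 (-0.03 and 0.11) and Nr5a2 (0.04 and -0.01) differed in side as well. Myc stayed on 1 side but had 0.24 in mitosis and 0.02 at 20 minutes. Utf1, low in mitosis and at 20 minutes, had 0.24 in asynchronous cells.

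**Figure D2:**
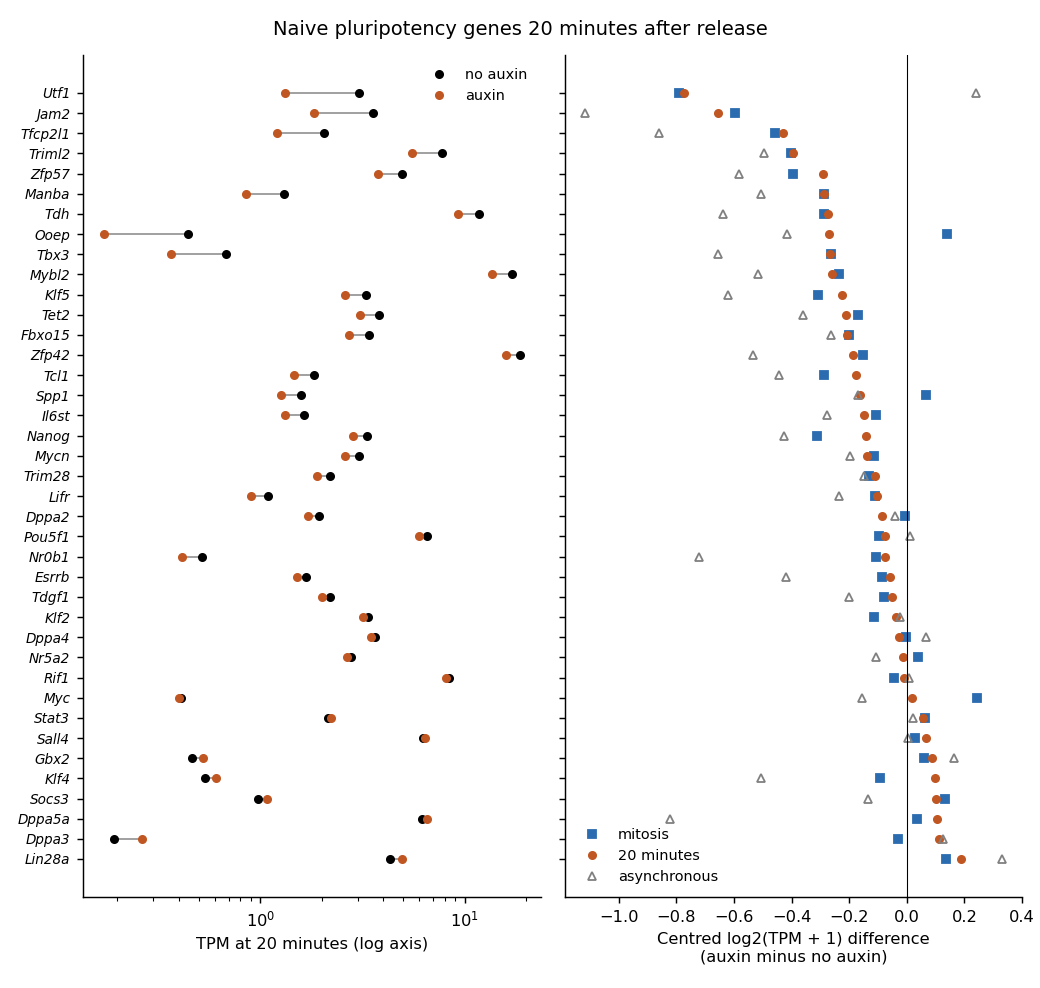
TPM at 20 minutes without (black) and with auxin (orange) on a log axis (left), and centred log2(TPM + 1) differences in mitosis, at 20 minutes and in asynchronous cells (right), 1 row for each of 39 naive pluripotency genes in the order of the 20-minute difference. The differences at 20 minutes lie near those of mitosis for most genes, 30 of 39 are below 0, and the values of asynchronous cells spread further.

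The lowest genes were next taken without regard to function. By rule these are the 12 lowest and the 12 highest differences among the 5186 genes with a mean of at least 1 TPM over the 2 arms at 20 minutes. The 12 lowest were Utf1, Snhg9, Jam2, Gm38509, Ntn1, 9130221H12Rik, Ldhb, Epha4, Adrm1, Zc3h12a, Nid2 and Tfcp2l1. Gm38509, a long non-coding RNA, was at 3.93 TPM without and 2.10 TPM with auxin (-0.64). Ntn1, the guidance cue and survival ligand netrin-1, was at 6.0 and 3.67 TPM (-0.55). Ldhb, a lactate dehydrogenase subunit, was at 1.65 and 0.814 TPM (-0.51). In each of these 3 the auxin arm was also on the lower side in mitosis and at 30 minutes. Epha4, an ephrin receptor, was at 2.36 and 1.32 TPM (-0.51), and Nid2, a basement membrane nidogen, at 3.44 and 2.22 TPM (-0.43). Zc3h12a, an RNase that degrades inflammatory transcripts, was at 1.44 and 0.763 TPM (-0.44). Adrm1, a ubiquitin receptor of the proteasome, was at 1.37 and 0.709 TPM (-0.44) and only -0.09 in mitosis. Ligands, receptors, matrix proteins and enzymes were thus among the lowest together with naive factors. Snhg9, at 2.82 and 1.37 TPM (-0.66), overlaps Rps2 and Snora78, and 9130221H12Rik, at 2.33 TPM without auxin (-0.53), overlaps Gsk3a, so the reads behind both are uncertain. Jam2, Ntn1, Epha4, Nid2 and Tfcp2l1 also overlap another annotated gene, so overlap is not particular to Snhg9 and 9130221H12Rik. So do other genes named in the text, such as Triml2 (with Triml1), Atp5j (with Gabpa) and Tm7sf2 (with Vps51). Of the 12 lowest, only Snhg9 and 9130221H12Rik lay on the other side in a neighbouring stage, Snhg9 at 30 minutes (0.19) and 9130221H12Rik in mitosis (0.29).

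Promoters of 5 genes are shown because the deposited Nr5a2 peaks touch them and because they differ in side and in motif. They were chosen after their values were seen: Tfcp2l1, Ldhb, Epha4 and Triml2 from the lower side, and Slc27a2, a fatty acid transporter and acyl-CoA synthetase that was at 2.10 TPM without and 2.39 with auxin (0.16), from the higher side. Each lies in the 250 bases before a transcript start, from RefSeq on GRCm38.p6, 5′ to 3′ on the strand of the gene, and bases past the outermost start of the gene are left out (73 in Triml2, 22 in Tfcp2l1 and 19 in Epha4). Capitals mark AAGGTCA or AAGGCCA on either strand, the letters shared by the extended half-sites that Esrrb and Nr5a2 bind. The Tfcp2l1 window (chr1:118627695-118627922, plus strand) overlaps a peak of class dB and holds neither motif. The Ldhb window (chr6:142507958-142508207, minus strand) overlaps a dB peak and holds AAGGCCA with its first base 202 bases before the start. The Epha4 window (chr1:77515108-77515338, minus strand) overlaps an eB peak without a motif. The Triml2 window (chr8:43180286-43180462, plus strand) overlaps an eB peak and holds AAGGTCA 122 bases before the start. The Slc27a2 window (chr2:126552774-126553023, plus strand) overlaps an eB peak and holds AAGGTCA on the other strand, read as TGACCTT, 220 bases before the start. In the 3 windows with a motif, the motif lies within the peak. The codes eB and dB are the authors' and come without a definition.
Tfcp2l1: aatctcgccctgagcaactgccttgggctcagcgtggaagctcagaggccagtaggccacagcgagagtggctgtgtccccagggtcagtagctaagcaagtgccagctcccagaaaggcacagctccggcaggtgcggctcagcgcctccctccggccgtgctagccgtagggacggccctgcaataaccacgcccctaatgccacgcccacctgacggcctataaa
Ldhb: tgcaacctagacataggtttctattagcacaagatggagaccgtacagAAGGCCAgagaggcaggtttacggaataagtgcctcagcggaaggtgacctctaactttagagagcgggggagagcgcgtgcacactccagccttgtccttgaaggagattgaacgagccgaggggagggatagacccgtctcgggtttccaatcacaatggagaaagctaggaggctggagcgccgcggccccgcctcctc
Epha4: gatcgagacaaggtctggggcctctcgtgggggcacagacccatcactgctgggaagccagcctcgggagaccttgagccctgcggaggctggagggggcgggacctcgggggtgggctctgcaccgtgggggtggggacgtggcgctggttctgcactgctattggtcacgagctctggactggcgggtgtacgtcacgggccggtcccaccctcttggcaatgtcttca
Triml2: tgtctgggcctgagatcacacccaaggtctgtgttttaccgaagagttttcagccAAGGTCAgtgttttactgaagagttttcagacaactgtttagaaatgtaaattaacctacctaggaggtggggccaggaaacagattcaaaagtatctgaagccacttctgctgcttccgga
Slc27a2: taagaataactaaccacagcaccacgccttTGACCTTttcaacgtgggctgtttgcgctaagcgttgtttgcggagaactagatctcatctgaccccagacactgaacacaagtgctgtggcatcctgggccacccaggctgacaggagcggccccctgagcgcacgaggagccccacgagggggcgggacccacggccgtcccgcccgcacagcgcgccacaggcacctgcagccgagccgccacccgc

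Genes on both sides of the 20-minute comparison thus had such promoters. Of 9170 windows of 250 bases before a transcript start, 5267 reach past the outermost start of their gene. Of all 9170, 2.74% hold AAGGTCA, 4.42% hold AAGGCCA, 7.03% hold either, and 12% overlap a peak. Among windows with a peak, 15.2% hold a motif. Of the 7266 genes with a window, the 822 with a peak but no motif had a median difference of -0.015 at 20 minutes, with 58.0% below the stage median. The 174 genes with both had -0.014, with 56.9% below, the 436 with a motif but no peak had 0.0009, with 49.1% below, and the 5834 with neither had 0.0023, with 48.6% below. Peak and motif were counted over all windows of a gene and need not share a window, since only 167 windows hold both. The 2 groups with a peak lay slightly lower than the 2 without, by less than 0.02 in log2. Among the 12 lowest genes 9 have a window, of which 3 overlap a peak, and among the 12 highest 7 have one, of which 0 do. Of the 10 genes lower in mitosis, at 20 and at 30 minutes, described further on, 6 have a window and 2 of these overlap a peak, and of the 10 higher 7 have one and 3 do. Of the 39 naive genes 27 have a window, and 11 of these overlap a peak. These are counts per gene, to be set beside the 822 and the 174 genes with a peak among the 7266, not beside the 12% of windows.

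Over whole genes the same small shift was seen. Genes with no Nr5a2 peak within them or within 10 kb on either side (2523) had a median difference of 0.0075, and 45.3% were below the stage median. Genes with 4 or more peaks (1354) had a median of -0.015, with 58.7% below, and past the limit of 0.32 there were 21 lower (1.55%) against 1 higher (0.0739%). Genes with 1 peak had a median of 0.0035, and those with 2 or 3 had -0.0030. Genes with 4 or more peaks were also longer, with a median span of 52278 bp against 17103 bp for those with none, and the part of span in this was not tested. The peaks come from wild-type cells and carry no signal per library.

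The 12 highest genes were Arf6, Ints5, Mir1946b, Lsm10, Aurkaip1, Tmem251, Raver1, Ifitm3, 1700047I17Rik2, Gadd45a, Pfdn6 and Srsf2. Arf6, a small GTPase of membrane traffic, was at 3.88 TPM without and 6.61 TPM with auxin (0.67). Ints5, an Integrator subunit, was at 1.94 and 3.19 TPM (0.54). Srsf2, a splicing factor, was at 7.12 and 9.35 TPM (0.38). These 3 are the higher-expressed of the group, and 9 of the 12 were under 3 TPM in both arms. Gadd45a, a p53 target of the DNA damage response, was at 1.14 and 1.78 TPM (0.41). Ifitm3, an interferon-induced membrane protein, was at 1.23 and 1.95 TPM (0.44), and in mitosis it had -0.74. No naive pluripotency gene was among the 12, but only 39 of all 8999 genes are on that list, so this absence says little. Tmem251, Raver1, 1700047I17Rik2, Gadd45a and Srsf2 overlap another annotated gene.

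Most genes low at 20 minutes were low at the other stages, whereas genes high at 20 minutes often were not high there. The 12 lowest had medians of -0.47 in mitosis, -0.52 at 20 and -0.46 at 30 minutes, -0.41 at 40 and -0.77 at 120 minutes, and -0.69 in asynchronous cells, and 11 of 12 were below the median in mitosis and at 30 minutes. The 12 highest had medians of 0.09 in mitosis, 0.46 at 20 minutes, -0.09 at 30 and -0.27 at 40 minutes, with 8 of 12 above the median in mitosis and 2 of 12 at 40 minutes. Arf6, the highest at 20 minutes, had -0.46 in mitosis and -1.18 at 40 minutes. The values at 20 minutes chose these genes and are a description, and the other stages come from separate libraries.

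**Figure D3:**
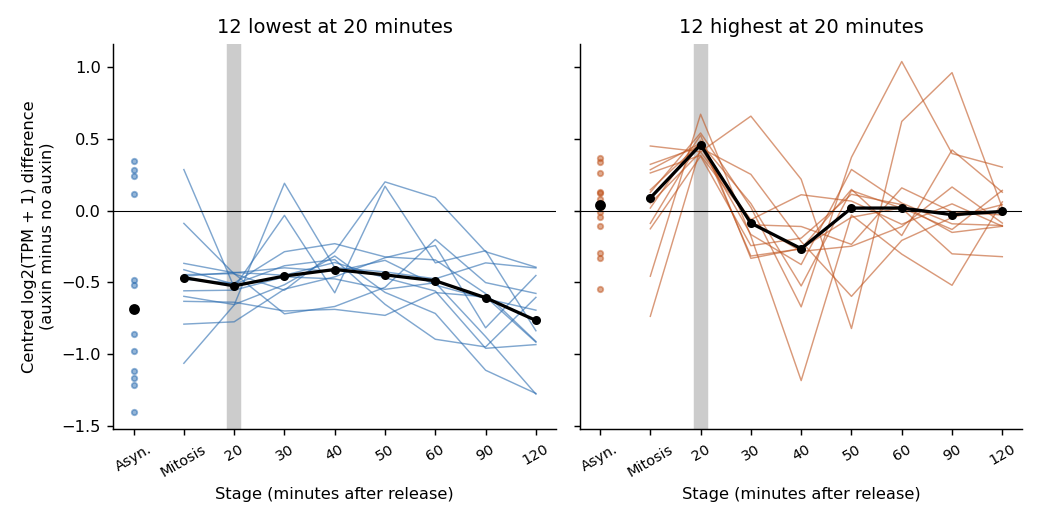
Centred log2(TPM + 1) difference (auxin minus no auxin) of the 12 lowest (left) and 12 highest (right) genes at 20 minutes, across the stages, with thin lines for genes, black for the median, separate points for asynchronous cells and a grey band at 20 minutes. The left median stays between -0.41 and -0.77, and the right median is 0.46 at 20 minutes and -0.09 at 30 minutes.

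The same was seen in the 100 lowest and 100 highest of all 8999 genes. Of the 100 lowest, 77% were below the median in mitosis, 83% at 30 and 74% at 40 minutes, and 76% in asynchronous cells, beside 50.0% of all genes. Of the 100 highest, 54% were above it in mitosis, 37% at 30 and 28% at 40 minutes, and 52% in asynchronous cells. The medians of the 100 highest were 0.30 at 20 minutes, 0.018 in mitosis and -0.065 at 30 minutes, whereas those of the 100 lowest were -0.35, -0.26 and -0.23. The 100 highest had a median span of 2952 bp and a median level of 0.781 TPM, the 100 lowest 9518 bp and 1.34 TPM, and all genes a median span of 21822 bp. Span and level thus moved with the side, and their part in the pattern was not tested.

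**Figure D4:**
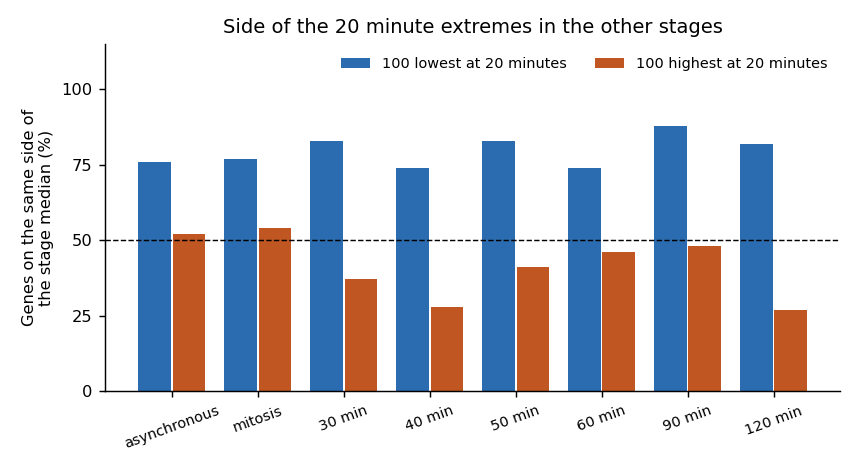
Share of the 100 lowest (blue) and 100 highest (orange) genes at 20 minutes that lie on the same side of the stage median at each of the other 8 stages, in percent. Blue bars lie between 74% and 88% and orange bars between 27% and 54%; the dashed line marks 50%.

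Short genes varied most. Genes were put in 5 equal groups by span. The shortest group (1799 genes, median 4616 bp) had an SD of 0.148 over genes at 20 minutes, with 30 genes lower and 37 higher past the limit of 0.32. The longest group (median 95404 bp) had an SD of 0.0637, with 9 lower and 0 higher. The shortest group had a median of 0.014 at 20 minutes, -0.016 in mitosis and -0.061 at 30 minutes. Of 5 equal groups by RNA level in the other 16 group columns, the lowest had a median of 0.018 and the highest -0.017. The 505 genes whose mean over both arms at 40 minutes was 2-fold or more that of mitosis had a median difference of 0.018, with 5 lower and 20 higher past the limit of 0.32, against -0.0007 for the other 8494.

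Few genes had moved 1.5-fold in TPM + 1 from the mitotic level by 20 minutes in either arm. The median gene was 0.04 above mitosis in log2(TPM + 1) without auxin and 0.007 above it with auxin, with 73.3% and 53.8% of genes above. These changes within an arm are not centred. From mitosis to 20 minutes, summed TPM went from 17189 to 18417 without auxin and from 17155 to 17641 with it. At least 1.5-fold above mitosis in TPM + 1 were 11 genes without and 13 with auxin, and 2 were in both, 0.0222% of genes. Adding 1 TPM understates the rise of low genes, and no other pseudocount was tried for these counts. Gbx2, which is not among the 2, went from 0.210 to 0.463 TPM without auxin and from 0.265 to 0.523 TPM with it. Raver1, also not among them, went from 1.17 to 1.78 TPM and from 1.73 to 2.71 TPM. Mir20a, a member of the miR-17-92 cluster of microRNAs, is listed at 0 in mitosis in both arms and was at 0.744 TPM without and 0.669 with auxin at 20 minutes. Rpl10, a ribosomal protein gene, was at 2.48 TPM in mitosis and 4.34 at 20 minutes without auxin, and at 2.59 and 4.72 TPM with it. Rpl10 overlaps Snora70 and has close copies in the genome, so its value is uncertain.

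The genes that lay on 1 side in mitosis, at 20 and at 30 minutes were named by a second rule. Among the 5186 genes with a mean of at least 1 TPM at 20 minutes, each such gene was ranked by the smallest in size of its 3 differences, and the first 10 were taken in each direction. The 10 lower, of 956, were Gm38509, Utf1, Jam2, Ntn1, Zc3h12a, Tfcp2l1, Ldhb, Nid2, Idh2 and Llgl2. Idh2, the mitochondrial isocitrate dehydrogenase, was at 1.54 TPM without and 0.864 with auxin at 20 minutes (-0.42). Llgl2, a polarity protein, was at 1.26 and 0.742 TPM (-0.35). The 10 higher, of 939, were 1700047I17Rik2, Neat1, G2e3, Crebzf, Hax1, Lcat, Slc27a2, Igf2bp2, Fam117a and Cth. Neat1, the RNA that scaffolds paraspeckles, was at 11.3 TPM without and 13.2 with auxin (0.24), and Crebzf, a bZIP protein, at 18.5 and 20.7 TPM (0.18). Except for 1700047I17Rik2 (0.41), which overlaps Gm2446, the higher ones were between 0.15 and 0.24, less far from the median than the 10 lower.

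In the authors' deposited table, 851 of the 8999 genes are called lower (9.46%) and 767 higher (8.52%). The labels and headers name neither the test nor the stages behind the calls, which were made on these samples and are not independent of the values. Of the genes that the authors' deposited table calls lower, 88.6% were below the stage median at 20 minutes (median -0.10), and of those it calls higher 81.4% were above it (median 0.040). In mitosis these shares were 93.9% and 86.2%, and at 30 minutes 87.9% and 86.6%. Of the 100 lowest genes at 20 minutes, the authors' deposited table calls 60 lower and 2 higher. Of the 100 highest it calls 3 lower and 8 higher. Of the 62 genes lower past the limit of 0.32, 37 are called lower in the authors' deposited table, and 36 of these 37 were also below the median in mitosis. Of the 25 not called, 11 were below it in mitosis. Arf6 is called lower there although it was the highest gene at 20 minutes.

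For the other 24 lists the members of at least 1 TPM are counted here. In glycolysis and glucose uptake 14 of 19 were below the median (list median -0.10). In mitosis, at 20 and at 30 minutes 13 were below it, beside 17.8% of all genes. Pdk1, a kinase that inhibits pyruvate dehydrogenase, was at 1.45 TPM without and 1.04 with auxin (-0.24), and the glucose transporter Slc2a1 at 4.63 and 3.80 TPM (-0.20). In oxidative phosphorylation 27 of 37 were below (list median -0.067), and 20 were below at those 3 stages, beside the same 17.8%. Atp5j, an ATP synthase subunit, was at 5.25 and 3.92 TPM (-0.31), and Cox5a, a cytochrome oxidase subunit, at 3.94 and 3.02 TPM (-0.27), while Cox5b was at 0.79 and 1.10 TPM (0.26). Both energy lists thus lay on the lower side with members on each side.

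Of the 8 basement membrane genes 5 were below the median (list median -0.12), with fibronectin, Fn1, at 4.35 TPM without and 3.43 with auxin (-0.24) and the perlecan gene Hspg2 at 4.19 and 3.5 TPM (-0.18). Of 3 trophectoderm genes Tfap2c was at 0.861 and 0.554 TPM (-0.23) and Tead4 at 1.03 and 0.772 TPM (-0.17). Eomes was above the median (0.04) but at only 0.0577 and 0.0657 TPM. At such levels, subtracting the stage median of -0.03 is by itself enough to put a gene above it. Among FGF-ERK response genes 8 of 12 were below (list median -0.072). Dusp6, a phosphatase of ERK, was at 0.979 and 0.534 TPM (-0.34), against 0.13 in mitosis, and the early response factor Egr1 at 0.443 and 0.218 TPM (-0.21), against 0.18 in mitosis. These 2 differ in side from mitosis, whereas Etv4, at 1.39 and 1.01 TPM (-0.22), had -0.19 there. Of 8 formative and primed genes 4 were below and 4 above.

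Signalling and stress lists were mixed. The LIF-STAT3 list had 5 of 12 below and 7 above (median 0.040), with Socs2, a suppressor of cytokine signalling, at 2.83 TPM without and 3.26 with auxin (0.18), and at 30 minutes its median was -0.13. With only genes of at least 1 TPM at 20 minutes the LIF-STAT3 median also turned below 0. The Notch list had 2 below and 10 above (median 0.043), led by the ligand Dll1 at 0.285 and 0.431 TPM (0.18). In mitosis 6 of its 12 members were below the median, and at 30 minutes 7. Its median level was only 0.744 TPM without auxin, and in the lowest of the 5 groups by RNA level 35.6% of genes were below the median. In the integrated stress response 10 of 15 were above (median 0.055), with Ddit4, an inhibitor of mTORC1, at 0.60 and 0.809 TPM (0.21) and Atf5 at 1.37 and 1.62 TPM (0.18). In the p53 response 13 of 18 were above (median 0.014) and in the immediate early list 8 of 14 (median 0.014), medians that turned below 0 without centring, the second also with equal totals, with a pseudocount of 0.1 and with only genes of at least 1 TPM at 20 minutes. The heat shock list had 9 of 14 below (median -0.024), with Hspe1 at 5.13 and 3.51 TPM (-0.41), a gene that overlaps Hspd1. Cholesterol synthesis had 18 of 24 above (median 0.029), but below 0 without centring. Its highest member was Tm7sf2, a sterol reductase, at 1.17 and 1.52 TPM (0.24).

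Growth and cell cycle lists were close to the median. Of 40 mitotic genes 26 were below (median -0.028) and of 40 G1/S and replication genes 25 (median -0.022, above 0 with only genes of at least 1 TPM at 20 minutes), with cyclin E1, Ccne1, at 5.07 TPM without and 4.01 with auxin (-0.25). Ribosome biogenesis had 18 of 30 below (median -0.014, above 0 under equal totals, quantile scaling and a pseudocount of 0.1), including Rrn3, an initiation factor of RNA polymerase I, at 5.76 and 4.79 TPM (-0.19). Of 48 cytoplasmic ribosomal protein genes 29 were above (median 0.033), and at 30 minutes their median was -0.15; these genes have close copies and their levels are uncertain. Threonine, serine and glycine use had 9 of 14 below (median -0.018), Polycomb complexes 13 of 24 (median -0.0046), DNA methylation and demethylation 3 of 8 (median 0.013) and germ layers 2 of 4 (median 0.0038). The Polycomb median turned above 0 under equal totals, quantile scaling, a pseudocount of 0.1 and the 20-minute filter. The germ layer median turned below 0 under equal totals, quantile scaling and without centring, and the DNA methylation median without centring and with no filter. Only 2 of 13 primitive endoderm genes, 2 of 10 fibroblast markers and 0 of 11 genes of the 2-cell-like state reached 1 TPM.

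**Figure D5:**
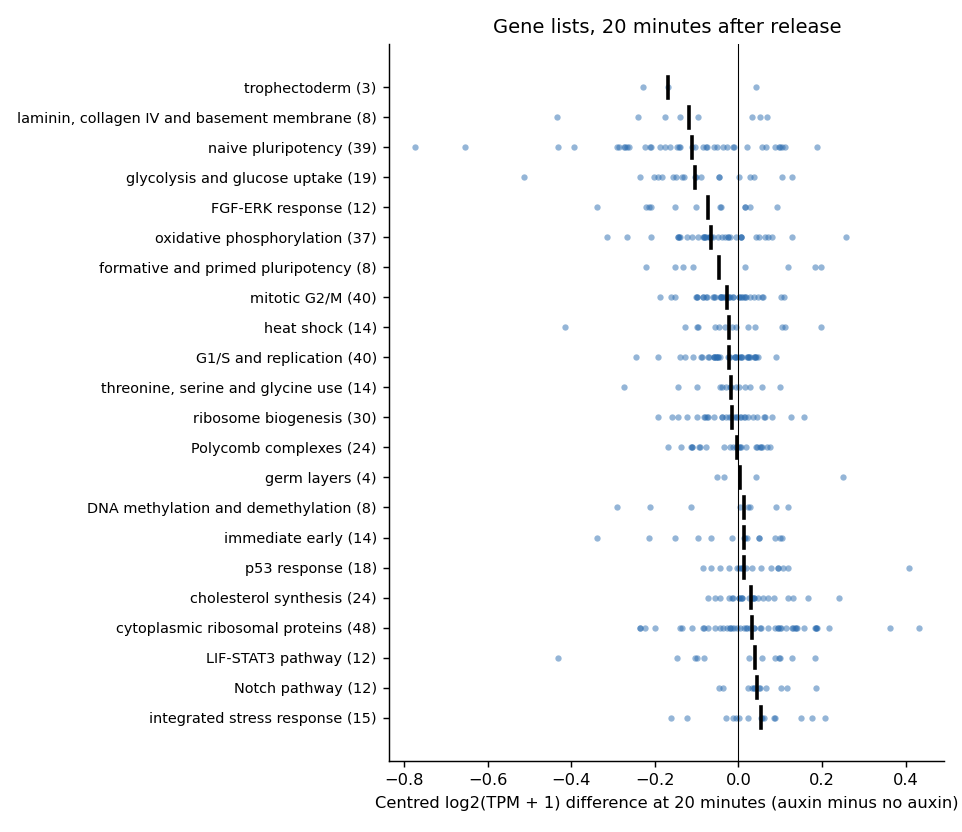
Centred log2(TPM + 1) difference at 20 minutes (horizontal axis, auxin minus no auxin) of each member of at least 1 TPM, 1 row per gene list with the number of members in brackets and a bar at the median, for lists of 3 or more such members. Naive pluripotency lies at a median of -0.11, with its 2 lowest members beyond -0.6. Trophectoderm (-0.17) and basement membrane (-0.12) have lower medians, and most other medians lie within 0.07 of 0.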

How the data were processed

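The authors deposited expression as TPM with 1 column per group, the mean of 3 libraries, together with a call per gene. STAR, RSEM and DESeq2 with mm10 are named for RNA, and Bowtie2 and MACS2 for ChIP, per the submitters' processing notes, with no versions. Ribosomal RNA was depleted and libraries kept strand, per the labels' protocols. Nothing says whether exons alone or whole genes were quantified, so values are called RNA levels. The deposited values of 20 minutes without auxin summed to 18417, far under the sum of a complete TPM set. Some genes, such as Sox2, Jun and Junb, have no deposited value, and the reason is not given. The values need therefore not be those of ordinary mRNA TPM. TPM keeps no depth, so depth per library is unknown.

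Differences were computed as log2(TPM + 1) with auxin minus without auxin and centred on the stage median (Python 3.11.15, pandas 2.3.3, numpy 2.4.6), and the code was tested on simulated data. This scale understates the change of low genes. The planned limma test needs single libraries and was not possible, so counts past 1.5-fold and past 0.32 in centred log2 replace it. Gene positions and promoters are from RefSeq on GRCm38.p6, matched by symbol for 8994 of 8999 genes. Peaks were used at the positions of the authors' list, whose coordinate base is unstated. The named genes are those of the 25 lists and of the 2 rules given in the text. Members and lists were chosen with earlier results of these data known. Alternatives were another pseudocount, filter, scaling, centring and fold limit.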

Additional observations from a re-analysis of the deposited data

How the results depend on the processing

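Counts past a fold limit depended most on the processing. The count of lower genes, 10 at 1.5-fold, was 105 with a pseudocount of 0.1, 4 when only genes of at least 1 TPM at 20 minutes were kept, 19 with columns scaled to equal totals, 18 with quantile scaling and 62 with the limit of 0.32 in log2. The count of higher genes, 3 at 1.5-fold, was 80, 1, 17, 17 and 43. All 10 lower genes were among the 105, and 4 of them among the 4. The share of genes called lower in the authors' deposited table that lay on the lower side, 88.6%, was 92.9% without centring, and that of genes called higher, 81.4%, was 73.0% with no filter and 59.8% without centring. Of the 100 lowest genes, the share also lower at 30 minutes, 83%, was 67% with the pseudocount of 0.1 and 74% without centring, and the share also lower in mitosis, 77%, was 67% with that pseudocount and 85% with the 20-minute filter. The trophectoderm median, -0.17, was -0.33 with that pseudocount and -0.017 with no filter. The signs of Rif1, Myc, Nr5a2 and Dppa4, all near 0, turned under at least 1 setting. The naive pluripotency median was -0.14 without centring and -0.12 with quantile scaling. Medians near 0 turned sign in 5 of 22 lists without centring, 4 with equal totals, 3 with quantile scaling, 3 with the pseudocount of 0.1, 4 with the 20-minute filter and 1 with no filter. No paired analysis was possible because the table holds group means and no replicate columns, and leaving out single libraries was not possible for the same reason. Depth limits cannot be given.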

Other observations

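Gm38509, a long non-coding RNA gene that was lower with auxin in mitosis (-0.63), at 20 minutes (-0.64) and at 30 minutes (-0.70), lies at chr3:34772075-34782346 on GRCm38.p6, 119.6 kb beyond the end of Sox2. Sox2 was not analysed here.

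Over all 8999 genes, the differences at 20 minutes had a Pearson's r of 0.30 with those in mitosis, 0.10 with those at 30 minutes, -0.027 with those at 40 minutes, 0.36 with those at 90 minutes and 0.32 with those in asynchronous cells. The groups come from separate libraries, genes are not independent, and no test was made.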
